A study of Mus musculus with 2 samples.

Results

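The GABAergic neurons of the mouse ventral hippocampus fell into 2 clusters, GABA_1 and GABA_2, which held 139 of the 8477 single cells in the deposited table. They were taken by the cluster name that the authors gave to each cell. GABA_1 held 73 cells, 37 of the WT library and 36 of the L151 library, and GABA_2 held 66 cells, 27 of WT and 39 of L151. All cells that the authors typed as GABAergic were in these 2 clusters, and 0 cells of the 2 clusters had another type. They are compared here with the 2847 cells of the 9 glutamatergic clusters whose names begin with Neu_, 1244 of WT and 1603 of L151.

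The tissue came from male mice of a C57BL/6J x C57BL/6N background aged 11 to 12 weeks. WT mice carried ADCY2-V151, the wild-type form of adenylyl cyclase 2, a membrane enzyme that makes the second messenger cAMP. L151 mice carried ADCY2-L151, in which leucine replaces a valine. The L151 line goes back to 1 heterozygous CRISPR/Cas9 founder, whose repair template also held silent changes, and by the study's account the L151 mice were homozygous. Papain was used to release the cells, and the droplet-based 10x Genomics chemistry tagged each captured mRNA from its 3' end with a unique molecular identifier (UMI). The study excluded 1 sample of each genotype for quality, and 1 library per genotype is in the table, so mouse, library and genotype cannot be told apart, and no test of genotype is given. Where an interval follows a share, it is the exact Clopper-Pearson 95% interval and covers counting error only.

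GABAergic neurons release GABA, the main inhibitory transmitter of the forebrain. In the hippocampus they are a small and diverse group of mostly local interneurons that hold the pyramidal cells of CA1 and CA3 and the granule cells of the dentate gyrus in check, whereas these principal cells are glutamatergic and excitatory. Gad1 and Gad2, which make GABA, and Slc32a1, which loads it into vesicles, define them. Interneuron classes differ in size, firing and metabolism, and fast-spiking interneurons are known for dense mitochondria. The table holds totals per cell and no counts per gene were analysed here, so the GABAergic label could not be checked against Gad1, Gad2 and Slc32a1, and neither cluster could be assigned to an interneuron class.

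The WT library held 4055 cells with 22049587 UMIs and the L151 library 4422 cells with 22276085 UMIs. GABA_1 took 0.872% of the UMIs in WT and 0.828% in L151, and GABA_2 took 0.271% and 0.272%. Of all barcodes, 3 occurred in both libraries and 0 of these belonged to a GABAergic cell.

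GABA_1 and GABA_2 were unlike each other in every per-cell value, and in the same direction in both libraries. GABA_2 cells held fewer UMIs, fewer genes and a lower mitochondrial share than GABA_1 cells, and all GABA_2 cells had a doublet score of 0. The clusters were built by the authors from the expression of the same cells, so these differences describe the clusters and are not tested.

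Of UMIs, a GABA_1 cell of WT had a median of 4430, with quartiles of 3600 and 6063 and a range from 1737 to 14465. In L151 the GABA_1 median was 4437, with quartiles of 3537.5 and 5643.5 and a range from 1306 to 13266. The 2 libraries were thus nearly level in GABA_1. A GABA_2 cell of WT had a median of 1741 UMIs, with quartiles of 1236 and 2844.5 and a range from 764 to 6764. In L151 the GABA_2 median was 1144 UMIs, with quartiles of 779 and 2190 and a range from 485 to 4342. The upper quartile of GABA_2 lay below the lower quartile of GABA_1 in both libraries, although the ranges overlapped. The ratio of the GABA_2 to the GABA_1 median was 0.393 in WT and 0.258 in L151. Among all pairs of 1 cell from each cluster, the GABA_2 cell had fewer UMIs in 87.2% of pairs in WT and in 94.7% in L151. Only 2 of 27 GABA_2 cells in WT and 0 of 39 in L151 lay above the GABA_1 median.

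**Figure D1:**
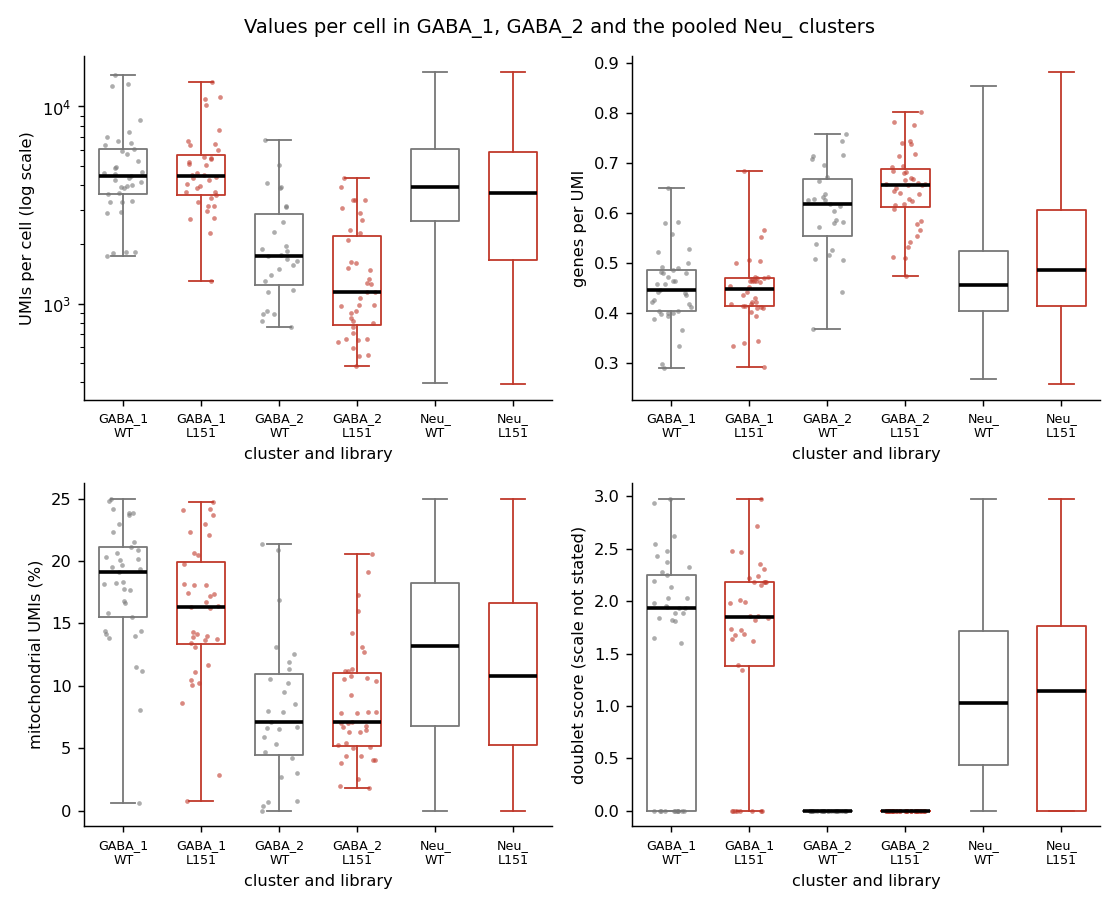
Values per cell by cluster and library for UMIs (log axis), genes per UMI, mitochondrial UMIs in percent and doublet score. Points are GABAergic cells, boxes give the quartiles with the median as a thick line, whiskers reach the lowest and highest cell, and the Neu_ cells are shown as boxes only. The GABA_2 boxes lie below the GABA_1 boxes for UMIs and mitochondrial share and above them for genes per UMI, and all 66 GABA_2 cells have a score of 0.

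The number of detected genes followed the UMIs. The median was 1999 genes in WT and 1957.5 in L151 for GABA_1, against 1083 and 744 for GABA_2. The smallest number of genes was 894 in GABA_1 and 361 in GABA_2, both in L151. The ratio of the GABA_2 to the GABA_1 median was 0.542 in WT and 0.380 in L151, nearer to 1 than the ratio of UMIs in both libraries.

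Mitochondrial transcripts also set the 2 clusters apart. In GABA_1 a median of 19.2% of the UMIs in WT and 16.3% in L151 came from mitochondrial genes, with quartiles of 15.5% and 21.1% in WT and of 13.3% and 19.9% in L151. In GABA_2 the median was 7.07% in WT and 7.09% in L151, with quartiles of 4.46% and 11.0% in WT and of 5.18% and 11.0% in L151. The GABA_2 median was therefore the lower one, with a difference of -12.1 percentage points in WT and -9.26 in L151, and the GABA_2 cell was the lower one in 89.5% and 84.7% of all pairs. The GABA_2 medians of the 2 libraries were almost the same, whereas that of GABA_1 was lower in L151, with a difference of -2.81 points.

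The authors had removed cells above 25% mitochondrial UMIs, and GABA_1 came close to that limit. In WT 15 of 37 GABA_1 cells (40.5%, 24.8 to 57.9%) and in L151 9 of 36 (25%, 12.1 to 42.2%) were above 20%, against 17% and 10.6% of the glutamatergic cells. Of GABA_2, 2 of 27 cells in WT and 1 of 39 in L151 were above 20%. The highest GABA_1 cell was at 24.96%. How many GABAergic cells the limit removed cannot be seen in the table. A limit of 10% would leave 2 of 37 and 3 of 36 GABA_1 cells, but 18 of 27 and 25 of 39 GABA_2 cells, so that GABA_2 would make up 90.0% of the GABAergic cells in WT and 89.3% in L151.

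The same gap was present among cells of like depth. Between 2000 and 4000 UMIs the median mitochondrial share was 17.8% in 11 WT and 16.4% in 13 L151 cells of GABA_1, and 5.67% in 6 WT and 6.55% in 10 L151 cells of GABA_2. Glutamatergic cells in the same window, all clusters pooled, were in between, at 14.8% in WT and 13.9% in L151. Without the mitochondrial UMIs, GABA_1 cells still held more than GABA_2 cells, with a median of 3514 against 1557 in WT and of 3767.5 against 1004 in L151. The ratio of these medians was 0.443 and 0.266, close to that of all UMIs.

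**Figure D2:**
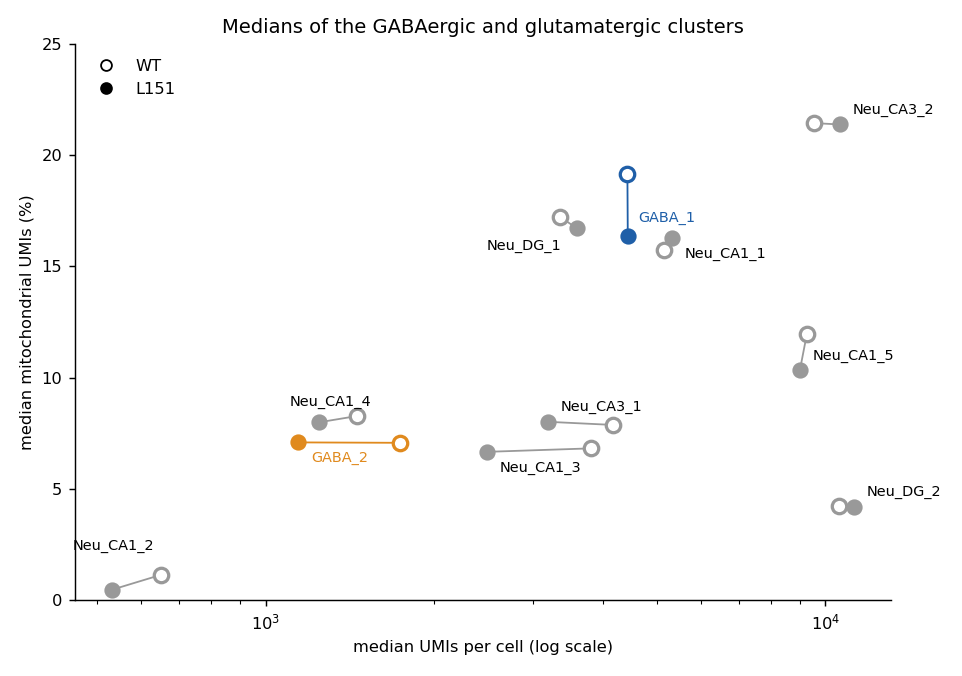
Median mitochondrial share in percent against median UMIs per cell (log axis) for the 2 GABAergic and 9 glutamatergic clusters, with WT as open and L151 as filled circles joined by a line. GABA_1 sits among Neu_DG_1 and Neu_CA1_1 with a median above 16% and GABA_2 sits next to Neu_CA1_4 with a median near 7% in both libraries.

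Among the 11 neuronal clusters, GABA_1 had the 5th highest median of UMIs in both libraries. Neu_CA1_1 was next above it, with 5149 UMIs in WT and 5316 in L151, and next below it were Neu_CA3_1 in WT with 4183 and Neu_DG_1 in L151 with 3594.5. GABA_2 was 9th in WT, between Neu_DG_1 with 3363 UMIs and Neu_CA1_4 with 1459, and 10th in L151, between Neu_CA1_4 with 1243.5 and Neu_CA1_2 with 532. The ranges between the quartiles overlapped for GABA_1 with these neighbours and for GABA_2 with Neu_CA1_4, so these places in the order are not separated. The glutamatergic clusters themselves ranged from a median of 649 to 10574 UMIs in WT and from 532 to 11239 in L151, so both GABAergic clusters lay inside that range.

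Set against all glutamatergic cells of the same library, GABA_1 had 1.13 times the median UMIs in WT and 1.22 times in L151, and GABA_2 0.444 and 0.314 times. The glutamatergic medians were 3921.5 UMIs in WT and 3638 in L151. Without Neu_CA1_2, a cluster of shallow cells, the ratio for GABA_1 was 1.07 in WT and 1.06 in L151. GABA_2 stayed below, with 0.419 and 0.273 times the median UMIs without Neu_CA1_2.

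In mitochondrial share, GABA_1 was 2nd of the 11 clusters in WT and 3rd in L151. Neu_CA3_2 was higher in both libraries with a median of 21.4%, and Neu_DG_1 was higher in L151 with 16.7%. GABA_2 was 8th in both libraries. The glutamatergic median was 13.2% in WT and 10.8% in L151, which put GABA_1 above it by 5.92 points in WT and 5.52 in L151. GABA_2 lay below it, with a difference of -6.16 points in WT and -3.74 in L151. Of the GABA_1 cells, 33 of 37 in WT and 30 of 36 in L151 were above the glutamatergic median of their library, and of the GABA_2 cells 3 of 27 and 10 of 39.

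Each GABAergic cell was then compared with the glutamatergic cells of its own library whose UMIs were within 10% of its own, at least 10 cells for each. Against these, GABA_1 cells were higher in mitochondrial share by a median of 3.87 points in WT, with 30 of 37 cells above, and by 1.84 points in L151, with 24 of 36 above. GABA_2 cells had a median difference of -2.46 points in WT, with 17 of 27 below. In L151 they were nearly level, at -0.904 points with 20 of 39 below. Without Neu_CA1_2 among the glutamatergic cells, 22 GABA_2 cells in WT and 30 in L151 still had at least 5 partners, and their differences were -2.80 and -2.77 points. The same 22 and 30 cells against all glutamatergic cells gave -2.47 and -2.70, so in L151 the value moved with the 9 cells left out rather than with the partners. With only the non-mitochondrial UMIs matched within 10%, the differences were 4.001 points in WT and 1.799 in L151 for GABA_1 and -3.78 and -0.930 for GABA_2. Against the pooled glutamatergic cells, the higher mitochondrial share of GABA_1 was thus seen in both libraries with either total matched. In L151 it was nearly level with Neu_DG_1 of like depth. Between 2000 and 4000 UMIs Neu_DG_1 had a median of 16.996% in WT and 16.7% in L151, beside 17.8% and 16.4% in GABA_1. Between 4000 and 8000 UMIs Neu_DG_1 had 18.4% and 16.7%, beside 20.7% and 16.8% in GABA_1. Cells were not matched to single clusters. The value of GABA_2 varied with depth. Among cells under 1000 UMIs, GABA_2 was higher than the glutamatergic cells by 0.0726 points in WT and 7.43 in L151, but 305 of these 333 glutamatergic cells were of Neu_CA1_2. In L151 the 11 cells of Neu_CA1_4 in that window had a median of 8.71%, above the 7.90% of GABA_2.

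Genes per UMI, the number of detected genes divided by the UMIs, had a median of 0.447 in WT and 0.448 in L151 for GABA_1 and of 0.619 and 0.656 for GABA_2. GABA_2 was thus higher by 0.173 and 0.209, and was 3rd of the 11 clusters in both libraries, while GABA_1 was 7th. This quantity falls as a cell is read more deeply. Across cells its Spearman correlation with UMIs was -0.900 in WT and -0.712 in L151 for GABA_1 (37 and 36 cells), and -0.918 and -0.873 for GABA_2 (27 and 39 cells), with UMIs in both terms.

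Within a window of UMIs that gap was smaller. Between 2000 and 4000 UMIs the medians were 0.482 for GABA_1 and 0.532 for GABA_2 in WT, and 0.464 and 0.561 in L151. The difference thus shrank from 0.173 to 0.0498 and from 0.209 to 0.0961. GABA_1 was still deeper inside this window, with median UMIs of 3600 against 3114 in WT and of 3258 against 2966 in L151. Counted over non-mitochondrial UMIs in the same window, both libraries together, the medians of genes per UMI were 0.581 for GABA_1, 0.607 for GABA_2 and 0.590 for glutamatergic cells. Against glutamatergic cells within 10% of their UMIs, GABA_1 cells detected 1.001 times as many genes in WT and 0.987 times in L151. GABA_2 cells detected 1.04 times as many in WT, with 19 of 27 cells above, and 1.02 times in L151, with 22 of 39 above. With the non-mitochondrial UMIs matched instead, it was 1.06 times in WT and 1.003 times in L151 for GABA_1, with 27 of 37 and 19 of 36 above. For GABA_2 it was then 1.02 times in both libraries, with 21 of 27 and 27 of 39 above. The number of genes per cell in GABA_2, 0.595 times the glutamatergic median in WT and 0.426 times in L151 over all cells, was thus close to that of glutamatergic cells of like depth in the median.

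**Figure D3:**
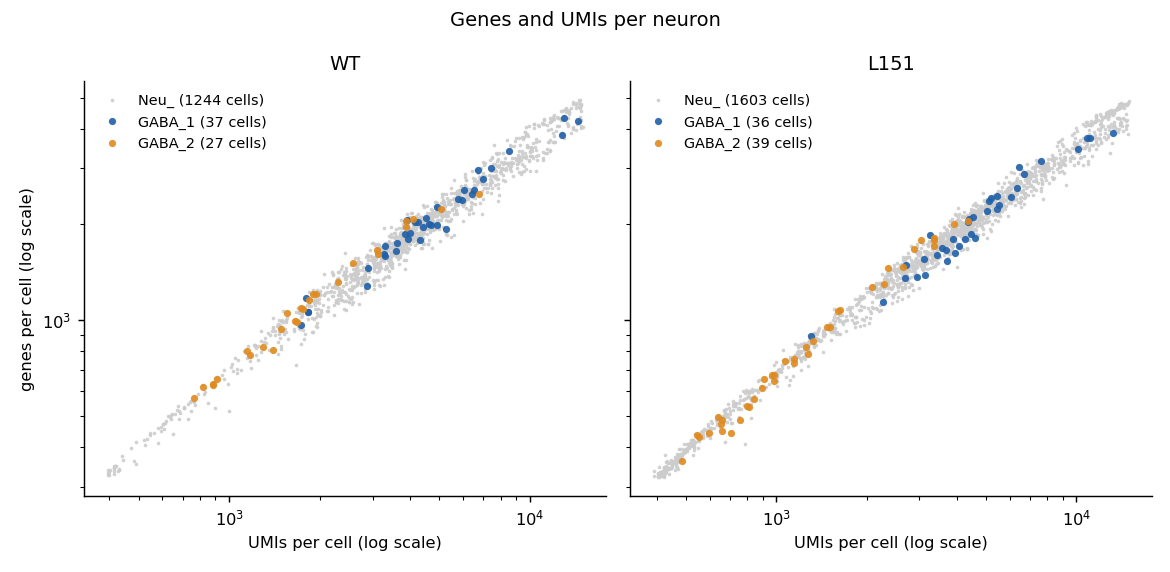
Genes against UMIs per cell, both on log axes, for WT (left) and L151 (right), with glutamatergic cells in grey, GABA_1 in blue and GABA_2 in orange. Both GABAergic clusters lie on the band of the glutamatergic cells, GABA_1 in its middle and upper part and GABA_2 in its lower part.

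The doublet score, a value per cell from the authors' search for droplets with more than 1 cell, has no scale stated in the sources used here. It was 0 in all 66 GABA_2 cells (94.6 to 100%). GABA_1 had a median of 1.93 in WT and 1.85 in L151, against a glutamatergic median of 1.033 and 1.141. It was 3rd and 4th of the 11 GABAergic and Neu_ clusters from the highest. A score of 0 was found in 11 of 37 GABA_1 cells in WT and 8 of 36 in L151, in 753 of 2847 glutamatergic cells (26.4%) and in 2243 of all 8477 cells (26.5%). The other GABA_1 cells had scores from 1.60 to 2.97 in WT and from 1.35 to 2.98 in L151, with 0 cells between these and 0. The score is thus split in GABA_1, with 54 cells high and 19 at 0. The authors had removed putative doublets before deposit, so a high score marks a cell that was kept.

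Score and depth went together. GABA_1 cells with a score of 0 had a median of 2907 UMIs in WT and 3193 in L151, and those above 0 had 4787 and 4490. All 333 glutamatergic cells and all 23 GABA_2 cells under 1000 UMIs scored 0. Between 1000 and 2000 UMIs all 5 GABA_1 and all 23 GABA_2 cells scored 0, as did 259 of 308 glutamatergic cells (84.1%). The clusters differed within the windows from 2000 to 8000 UMIs. Between 2000 and 4000 UMIs 16 of 16 GABA_2 cells scored 0 (79.4 to 100%), while 8 of 24 GABA_1 cells (33.3%, 15.6 to 55.3%) and 123 of 886 glutamatergic cells (13.9%, 11.7 to 16.3%) did so. Between 4000 and 8000 UMIs it was 4 of 4 GABA_2 cells (39.8 to 100%), 4 of 36 GABA_1 cells (11.1%, 3.11 to 26.1%) and 33 of 886 glutamatergic cells (3.72%, 2.58 to 5.19%). The authors' clusters and their score were both made from the expression of these cells, and whether they share a step that links them was not tested.

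**Figure D4:**
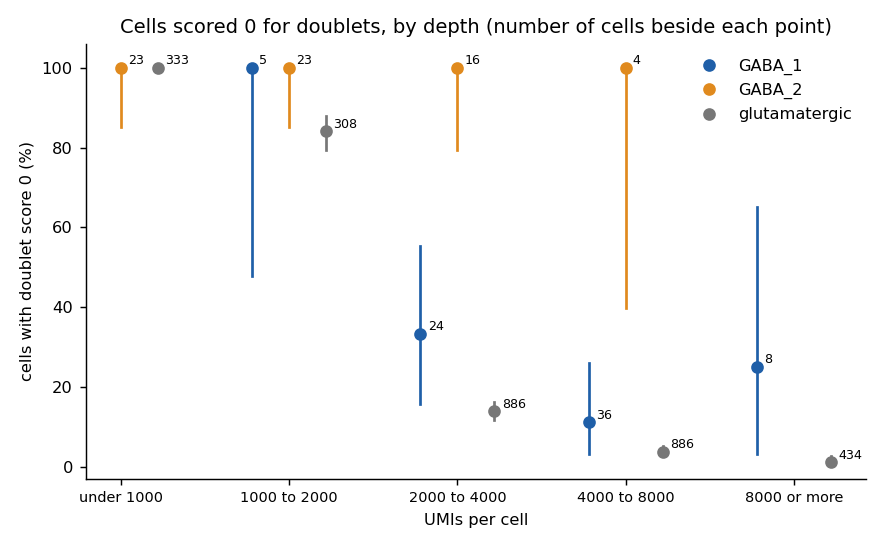
Percent of cells with a doublet score of 0 in 5 windows of UMIs per cell, both libraries together, for GABA_1, GABA_2 and the glutamatergic cells, with exact 95% intervals as bars and the number of cells beside each point. All GABA_2 points are at 100%, while the GABA_1 and glutamatergic points fall from 100% in their shallowest window to 11.1% and 3.72% between 4000 and 8000 UMIs, and 2 of 8 GABA_1 cells score 0 from 8000 UMIs up.

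The study asked how the L151 form changes the brain, and among its measures was the balance of excitation and inhibition in the ventral hippocampus. It took this from synaptic currents of CA1 pyramidal neurons, where excitatory events were more frequent and inhibitory ones less frequent in L151. Among neurons, its tests over single cells found more CA1 and CA3 and fewer DG glutamatergic cells in L151. Numbers of captured cells, given here, are a different measure from synaptic currents. In cell numbers, the GABAergic part of the GABAergic and glutamatergic neurons was 4.89% in WT (3.79 to 6.21%) and 4.47% in L151 (3.53 to 5.57%), or 19.4 and 21.4 glutamatergic cells per GABAergic cell. The L151/WT ratio of these shares was 0.913 (0.646 to 1.30). This ratio moved to the other side of 1 without Neu_CA1_2, which held 82 WT and 266 L151 cells. Without it the shares were 5.22% and 5.31%, with 18.2 and 17.8 glutamatergic cells per GABAergic cell and a ratio of 1.02 (0.719 to 1.44). These intervals cover counting error between the 2 libraries and place no bound on a difference between genotypes.

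Within the GABAergic neurons, GABA_2 made up 42.2% in WT (29.9 to 55.2%) and 52.0% in L151 (40.2 to 63.7%), so that there were 0.730 GABA_2 cells per GABA_1 cell in WT and 1.08 in L151. As a share of all cells, GABA_1 had an L151/WT ratio of 0.892 (0.548 to 1.45) and GABA_2 of 1.32 (0.790 to 2.25).

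The surplus of GABA_2 cells in L151 was found among its shallowest cells. Under 1000 UMIs there were 5 of 27 GABA_2 cells in WT (18.5%, 6.30 to 38.1%) and 18 of 39 in L151 (46.2%, 30.1 to 62.8%). From 1000 UMIs up there were 22 in WT and 21 in L151, and GABA_2 was 37.3% and 36.8% of the GABAergic cells. The ratio of shares among cells of that depth was 0.921 (0.482 to 1.76), an interval that also holds the 1.32 without a depth limit. With fewer than 500 genes there were 0 of 27 GABA_2 cells in WT and 10 of 39 in L151. No GABA_1 cell was under 1000 UMIs, 0 of 37 in WT and 0 of 36 in L151. Taking 3 cells of the total as the limit that a count of 0 allows, which is not the Clopper-Pearson bound, these zeros allow shares of up to 11.1% in GABA_2 of WT and of up to 8.11% and 8.33% in GABA_1. Of the glutamatergic cells 5.79% in WT and 16.3% in L151 were under 1000 UMIs, and 1 cluster held most of these, Neu_CA1_2 with 67 of 72 cells in WT and 238 of 261 in L151. The other glutamatergic clusters had 5 of 1162 cells under 1000 UMIs in WT and 23 of 1337 in L151.

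**Figure D5:**
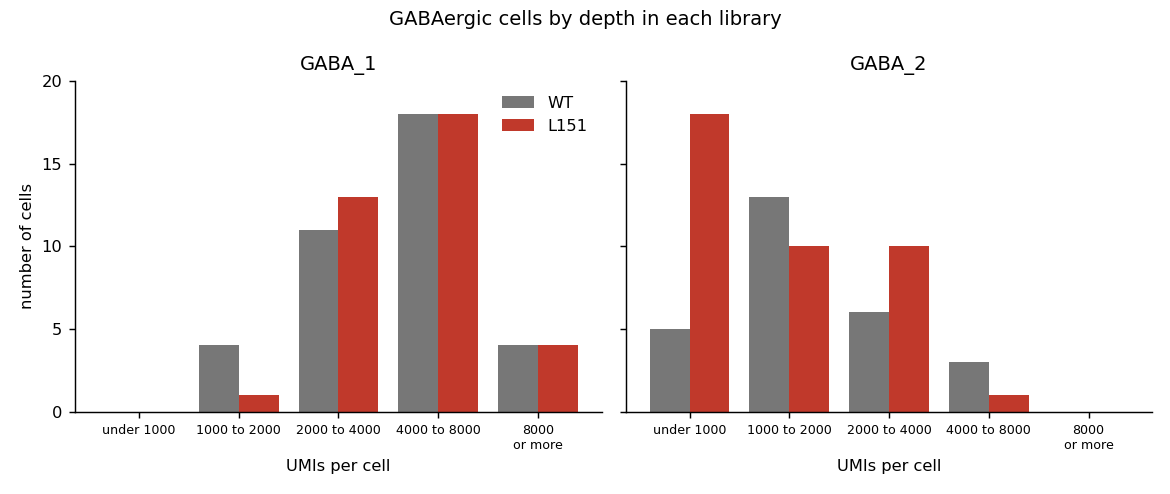
Number of GABA_1 (left) and GABA_2 (right) cells in 5 windows of UMIs per cell, with WT in grey and L151 in red. GABA_2 has 5 WT and 18 L151 cells under 1000 UMIs and 22 and 21 cells above, and GABA_1 has like numbers in both libraries from 2000 UMIs up.

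The median UMIs of GABA_2 were accordingly lower in L151, at 0.657 times the WT median, the third lowest ratio of the 33 clusters after Macrophages with 0.639 and Neu_CA1_3 with 0.650. Its median of genes was 0.687 times that of WT. With at least 1000 UMIs per cell the ratio of UMIs turned to 1.12, and with at least 1000 genes, which left 15 WT and 13 L151 cells, to 1.11. In GABA_1 the ratio was 1.002 for UMIs and 0.979 for genes. Genes per UMI differed by 0.0371 in GABA_2 and by 0.000807 in GABA_1, higher in L151. The median doublet score of GABA_1 was lower in L151, with a difference of -0.0887.

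The shallow GABA_2 cells of the 2 libraries were not alike in mitochondrial share. Under 1000 UMIs the median was 0.785% in the 5 WT cells and 7.90% in the 18 L151 cells, while the whole cluster differed between the libraries by 0.0189 points. The median mitochondrial share of the pooled glutamatergic cells was also lower in L151, at 10.8% against 13.2% in WT. Without Neu_CA1_2, which held more cells in L151, it was 12.7% against 13.8%. By cluster, Neu_CA1_1 and Neu_CA3_1 were higher in L151, by 0.531 and 0.141 points. The other Neu_ clusters were lower, with differences down to -1.63 points, beside -2.81 in GABA_1. With 1 library per genotype, none of these differences can be set against a spread between mice.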

How the data were processed

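Cell Ranger 3.0.2, Seurat 3.1.3 and mm10 are named in the submitters' processing notes. The authors counted UMIs, removed doublets with scran, blood cells and cells with under 320 or over 5000 genes or over 25% mitochondrial UMIs, and clustered and named the cells. The deposited counts are raw totals of UMIs and genes per cell, not normalized. The deposited mitochondrial percent is the share of UMIs from mitochondrial genes, and the deposited doublet score has no scale given in the sources used here. Of the 8477 cells, all of which were used, 0 were outside these limits. Depth was 22049587 UMIs in WT and 22276085 in L151.

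Medians, quartiles, shares and exact intervals were computed per library in Python 3.11.15 (scipy 1.17.1, numpy 2.4.6, pandas 2.3.3; plots in matplotlib 3.10.9). For a ratio of shares, the bounds were derived from the exact binomial bounds of the L151 fraction of the cells. UMIs and genes were compared as ratios of medians and the other values as differences. With 1 library per genotype no test was made, and the intervals cover counting error only. Thinning cells to 1 depth needs counts per gene, which were not analysed here, so windows of UMIs and matched cells were used. The functions were tested on simulated data. The clusters named are GABA_1, GABA_2, those of the Neu_ series next to them in order or at its ends, and Neu_CA1_2. Macrophages, Endothelial_2, OPCs, Granule Neuroblast, Cajal Retzius and Neu_ clusters outside this rule were named after their values were seen. Members, lists and alternatives were chosen with earlier results of these data known, and the matching on UMIs or on non-mitochondrial UMIs, the counts of non-mitochondrial UMIs and the mitochondrial share within windows were added after seeing the data. No sequence carries a result here, so none is printed.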

Additional observations from a re-analysis of the deposited data

How the results depend on the processing

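Of 369 alternative values for 48 results, 283 stayed within the interval of the main medians or shares, and 78 moved beyond it. The other 8 changed direction, which was counted only where the main interval excluded no difference. Other values crossed no difference without being counted as such. Examples in GABA_2 are the L151/WT ratio of UMIs, from 0.657 to 1.12, and of shares of cells, from 1.32 to 0.921, both with at least 1000 UMIs. The depth and the mitochondrial limit mattered most, and the small cell numbers limit every value. With at least 1000 genes per cell, GABA_2 was 29.4% of the GABAergic cells in WT and 27.1% in L151. In L151 the ratio of UMIs was then 0.645 for GABA_2 to GABA_1, 1.01 for GABA_1 to glutamatergic and 0.650 for GABA_2 to glutamatergic, the difference in genes per UMI between GABA_2 and GABA_1 was 0.124, and that of GABA_2 to glutamatergic in mitochondrial share was -6.59. The L151/WT ratio of UMIs in GABA_2 was 1.11. With at least 1000 UMIs, GABA_2 was 36.8% in L151, and the L151 values were 0.471 for GABA_2 to GABA_1 and 0.5001 for GABA_2 to glutamatergic in UMIs, 0.169 for GABA_2 to GABA_1 in genes per UMI and -5.75 for GABA_2 to glutamatergic in mitochondrial share. The L151/WT ratio of UMIs in GABA_2 was 1.12. With at least 500 genes that mitochondrial difference was -5.23, and without Neu_CA1_2 it was -5.63.

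With at most 10% mitochondrial UMIs, GABA_2 was 90.0% of the GABAergic cells in WT and 89.3% in L151, and the GABAergic share of all cells was 0.703% and 0.901%. The ratio of UMIs of GABA_2 to glutamatergic was 0.597 in L151. The mitochondrial difference of GABA_2 to glutamatergic reversed to 0.947 in WT and 1.37 in L151. The limit acts on the same quantity that is compared, so this reversal is not a check of the difference. It cut cells of both groups, leaving 18 of 27 and 25 of 39 GABA_2 cells. The glutamatergic medians over all cells, 13.2% in WT and 10.8% in L151, lay above the limit. The part of each group in this reversal was not tested. With the median of cluster medians as reference, the mitochondrial difference was 10.9 in WT and 8.33 in L151 for GABA_1 and -1.21 in WT for GABA_2.

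Within windows of UMIs, the mitochondrial difference to glutamatergic was 2.998 in WT and 2.48 in L151 for GABA_1 between 2000 and 4000 UMIs, 2.34 in L151 between 4000 and 8000, and in L151 1.84 within 10% of the UMIs and 1.799 within 10% of the non-mitochondrial UMIs. For GABA_2 it was -0.504 in WT between 1000 and 2000 UMIs, -9.13 and -7.36 between 2000 and 4000, -2.46 in WT within 10% (-2.47 for the cells with partners outside Neu_CA1_2), and reversed to 0.0726 and 7.43 under 1000. Genes per UMI of GABA_2 against GABA_1 differed by 0.0498 and 0.0961 between 2000 and 4000 UMIs. GABA_2 against glutamatergic reversed under 1000 UMIs to -0.0609 in WT and -0.0840 in L151. The glutamatergic cells of that window were shallower, with median UMIs of 614.5 against 883 for GABA_2 in WT and of 530 against 732 in L151. The ratio of genes of GABA_2 to glutamatergic reversed to 1.04 and 1.02 within 10% of the UMIs. Under 1000 UMIs, L151 against WT in GABA_2 differed by -0.0263 in genes per UMI and by 7.12 points in mitochondrial share. The cause was not tested. No paired analysis was possible because each genotype has 1 library.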

Other observations

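Among the 33 clusters, 4 had a doublet score of 0 in every cell: GABA_2 with 66 cells, Neu_CA1_2 with 348, Endothelial_2 with 142 and OPCs with 28. Their median UMIs per cell over both libraries were 1438.5, 563, 708 and 873.5, so GABA_2 was the deepest of the 4.

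Neu_CA1_4 was next to GABA_2 in the order of UMIs in both libraries, although Neu_CA1_3, with a median of 6.82% in WT and 6.66% in L151, was nearer to it in mitochondrial share. Neu_CA1_4 had medians of 1459 UMIs and 8.28% mitochondrial UMIs in WT and of 1243.5 and 7.99% in L151. Of its 65 cells 60 scored 0, and so did 9 of 9 from 2000 UMIs up. Its L151/WT ratio of the share of all cells was 1.47 (0.869 to 2.52), beside 1.32 for GABA_2.

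A few GABA_1 cells stood apart from their cluster. In 3 of 73 cells under 5% of the UMIs were mitochondrial, with a lowest value of 0.666% in WT and 0.777% in L151, and all 3 had a doublet score of 0. The deepest GABA_1 cell, with 14465 UMIs, also scored 0. Within each cluster the mitochondrial share was only loosely tied to UMIs across cells, with a Spearman correlation of 0.218 in WT and 0.151 in L151 for GABA_1 and of 0.101 and -0.0493 for GABA_2.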
